A study of Homo sapiens with 21 samples.

Results

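Cells of AU565, a human breast cancer line that carries an amplified ERBB2 gene, were grown as 3D aggregates and then exposed to trastuzumab, an antibody against the extracellular part of HER2, the receptor that ERBB2 encodes. The members are the 6 libraries of aggregates that had never met the antibody before they formed, 3 exposed and 3 not, out of 21 libraries in the series, chosen by their labels. Untreated aggregates were cultured for 96 h in a liquid overlay containing 5% matrigel, a basement membrane extract. Treated aggregates were made in the same way and then kept for 24 h with trastuzumab at 50 µg/ml. They were therefore 24 h older at harvest, and the antibody and the added day cannot be told apart. All samples are the one cell line, of wild-type genotype per the labels, in serum-containing RPMI medium. The labels name no control antibody. They also leave unsaid whether replicates are separate cultures, so p-values measure the spread between these samples, which may be technical. The series concerns trastuzumab priming, aggregate formation and signaling, and its other groups are used below only for comparison. They are monolayers without antibody or with 20 µg/ml for 24 h (acutely exposed), and primed aggregates, made from cells that met 20 µg/ml for 24 h as a monolayer and were then cultured for 96 h, without or with 50 µg/ml for a final 24 h. Primed monolayers, given 20 µg/ml for 24 h and then kept for 96 h, enter only the shared fit and the levels of other-tissue panels.

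Total counts were 16939524 to 19577897 in the untreated and 21823685 to 23192612 in the treated libraries. Levels below are counts scaled to library size (CPM), given for replicates 1, 2 and 3 in turn, and changes are log2 fold changes of treated over untreated aggregates from edgeR. A gene rose or fell where its p, Benjamini-Hochberg adjusted over 15969 genes, was under 0.05. SE stands for the size of a change divided by the square root of its edgeR F statistic. The 20 genes that characterize this line, ERBB2, its amplified neighbours and luminal keratins among them, summed to 19334 to 20209 CPM in untreated and 22578 to 23673 CPM in treated libraries. CDH1, the gene of E-cadherin, was nearly absent from both groups at 1.18, 1.23 and 0.654 and 0.301, 0.642 and 0.384 CPM. Mitochondrial ribosomal RNA made up 2.50 to 2.75% of the untreated and 1.52 to 1.71% of the treated libraries.

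Transcripts of tissues other than breast differed between the groups. Of 21 kidney genes 16 rose and 1 fell, and their summed level went from 25.4 to 29.6 CPM in untreated to 43.5 to 81.0 CPM in treated libraries. The kidney genes AQP2, SLC22A6, SLC22A8, UGT2B7, ACSM2A and ACSM2B were at 0 in every untreated library. Of 18 brain genes 15 rose and 1 fell, with sums of 67.1 to 72.8 and 123 to 135 CPM, and the synaptic protein SNAP25 averaged 0.13 and 15.7 CPM. Of 10 melanocyte genes 0 rose and 9 fell, with sums of 26.5 to 35.9 and 8.53 to 10.6 CPM, and the pigment enzyme TYR was at 0 in every treated library. Among the 9, PMEL lost its call without untreated replicate 2 or treated replicate 2 or 3. MITF lost its call without untreated replicate 2 or treated replicate 3. Without untreated replicates 1 and 2 together, MITF, PMEL and MLANA changed by −0.26, −1.32 and −1.95, against −0.51, −1.55 and −2.48 with all libraries. Of 16 fibroblast and matrix genes 1 rose and 6 fell, with sums of 44.8 to 78.7 and 26.1 to 30.3 CPM. The cardiac myosin MYH7 was at 29.9, 20.6 and 0 CPM in the untreated and 0.086, 0.0458 and 0.0427 CPM in the treated libraries, and its change did not pass (edgeR adjusted p = 0.054). The related MYH6 was at 17.2, 17.8 and 0 and 0.258, 0 and 0.0854 CPM, so that both cardiac myosins were present in untreated replicates 1 and 2 and at 0 in replicate 3. The sum of the whole striated muscle panel did not set replicate 3 apart, at 266, 247 and 216 CPM in untreated and 110 to 121 CPM in treated libraries. Myoglobin, MB, made up most of it at 164, 163 and 195 and 84.9, 93.3 and 92.9 CPM and was the 1 member of 17 that fell, with 0 that rose. MB was at 71.8 CPM or more in every library of the series, those without cardiac myosin included. The fall of the panel sum is thus mostly that of MB, and whether MB came from another tissue was not tested. Kidney and brain sums were higher, and melanocyte and fibroblast sums lower, in all primed and treated aggregates than in any library of primed aggregates or of both monolayer groups compared below. Those groups were not alike in level, since melanocyte sums were 68.8 to 112 CPM in primed aggregates and 48.4 to 134 CPM in the monolayers, above those of untreated aggregates. The levels of these 4 panels therefore change with the 50 µg/ml exposure in both aggregate comparisons and there cannot be told apart from it. Primed monolayers, without that exposure, had kidney sums of 31.6 to 48.6 and brain sums of 211 to 225 CPM. Their melanocyte sums were 11.9 to 15.3 and their fibroblast sums 35.4 to 39.5 CPM. All 4 sums were shifted in the same directions against both untreated monolayers and untreated aggregates. The part of these panels in the results below was not tested. Counts of members of the pathway lists are given also without untreated replicates 1 and 2, the libraries with cardiac myosin. In that fit the remaining untreated library is assumed to vary like the other groups.

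**Figure D1:**
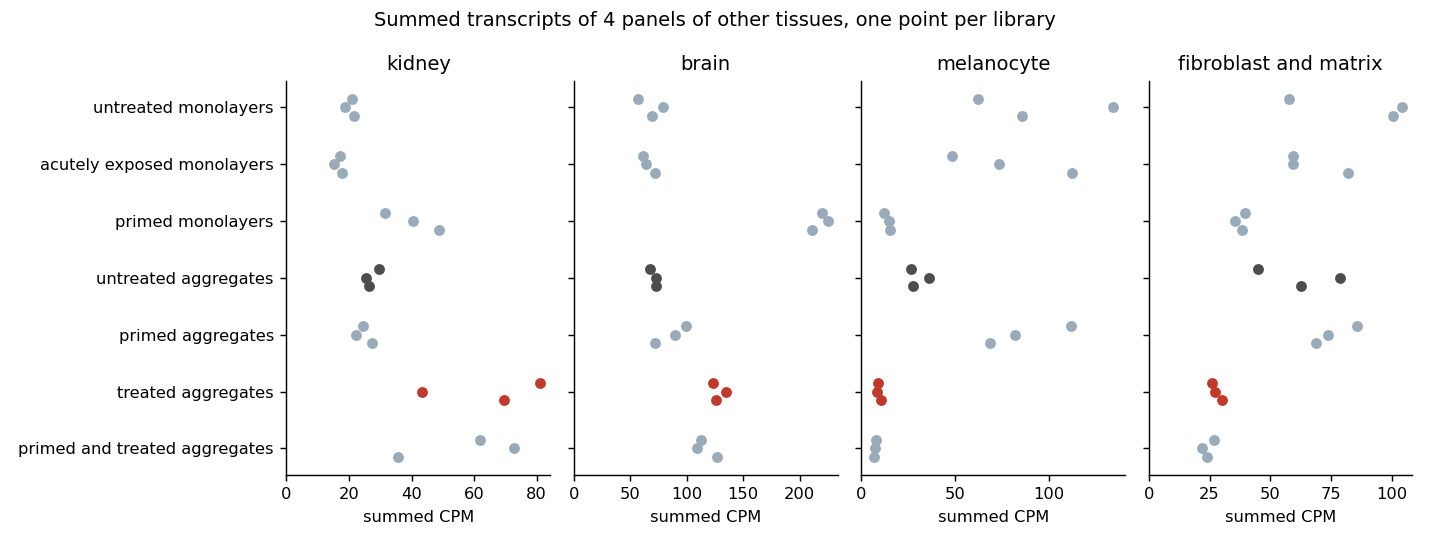
Summed level (horizontal axes, CPM) of the kidney, brain, melanocyte and fibroblast panels in every library of the 7 groups, 1 point per library, with untreated aggregates in dark grey and treated aggregates in red. Kidney and brain sums are higher and melanocyte and fibroblast sums lower in all 3 treated than in all 3 untreated aggregates.

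HER2 pairs with HER3 and other members of its family and signals through the PI3K-AKT and the RAS-ERK pathways, which in HER2-amplified cells drive growth, translation and glucose use. When these pathways are less active, FOXO transcription factors enter the nucleus and raise the transcription of receptor genes such as ERBB3, INSR and IGF1R. Inside multicellular aggregates oxygen falls toward the centre, the HIF transcription factors become stable, and their targets turn cells toward glycolysis. HIF also depends on PI3K and mTOR signaling for its synthesis. Trastuzumab binds HER2 outside the cell and weakens this signaling in sensitive lines.

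The difference between treated and untreated aggregates was broad and mostly small. edgeR called 5856 of 15969 genes (36.7%), of which 2996 (18.8%) were higher and 2860 (17.9%) lower in treated aggregates. The median change over all genes tested was 0.00083. Of the called genes 4207 changed by less than 1.5-fold, 456 rose and 356 fell by 2-fold or more. Among genes of at least 10 CPM in both groups 2045 rose and 2155 fell. These percentages are the background against which the counts of list members with all libraries are to be read. Counts without untreated replicates 1 and 2 come from a fit that tested 16550 genes and called fewer. The percentages above are not the background of those counts. Because the measurements are on whole cultures, fewer cells of a state and less RNA per cell cannot be told apart. Without untreated replicates 1 and 2, 4573 genes were called, 2185 higher and 2388 lower, and 3841 of them were among the 5856.

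**Figure D2:**
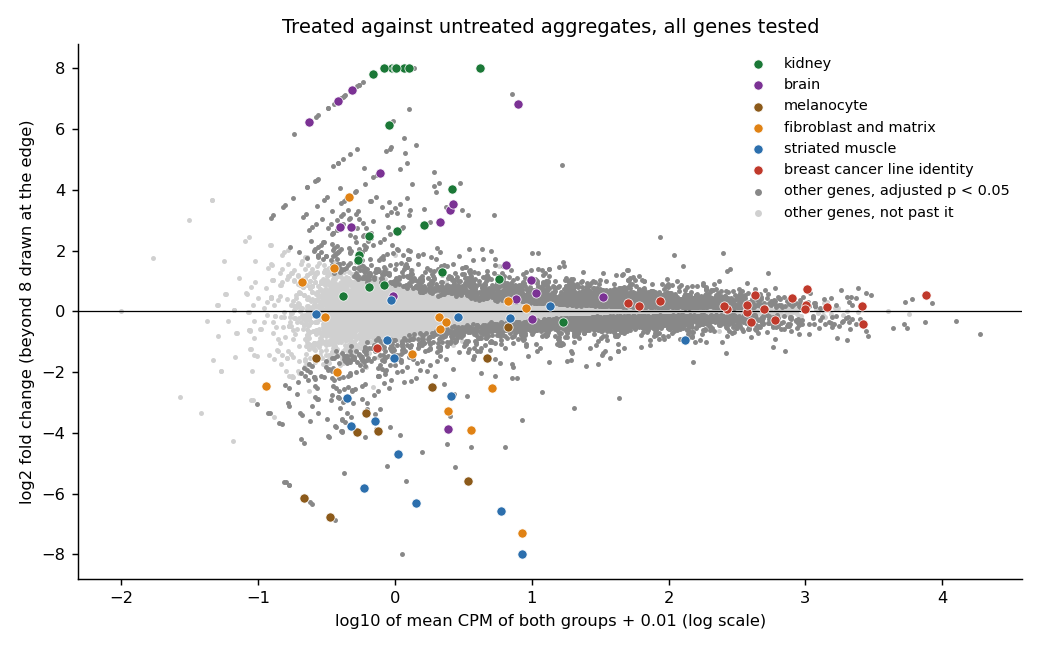
Change of each tested gene (log2 treated over untreated, vertical axis) against the log10 of its mean level (CPM), with called genes in dark grey and the members of 6 tissue panels in colour. The changes beyond 4 on the log2 scale are mostly genes of low level, kidney and brain genes among the rises and melanocyte, fibroblast and muscle genes among the falls.

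Genes of the hypoxia response fell together. Of 28 tested HIF targets 0 rose and 24 fell, against 17.9% of all genes, with a median change of −0.76. ADM, which encodes the vasodilator peptide adrenomedullin (chr11:10305073-10307397 on GRCh38.p14), was at 69.3, 82.7 and 76.9 CPM in untreated and 10.8, 11.8 and 8.97 CPM in treated aggregates. No treated library came within reach of an untreated one. The change was −2.86 (SE 0.13, edgeR adjusted p = 1.87e-13). EGLN3, one of the prolyl hydroxylases that mark HIF for destruction (chr14:33924227-33951074), was at 215, 219.9 and 246 CPM and then 66.5, 72.9 and 77.3 CPM. All treated libraries lay far below all untreated ones, a change of −1.65 (SE 0.066, edgeR adjusted p = 4.08e-19). PDK1, a kinase that keeps pyruvate from oxidation in the mitochondria, was at 59.1, 59.7 and 64.3 CPM against 25, 25.3 and 24.2 CPM. Its change was −1.30 (SE 0.073, edgeR adjusted p = 2.36e-15), and the groups did not overlap. HK2, the hexokinase that HIF induces, averaged 784 ± 47.6 CPM (SD, n = 3) in untreated and 417 ± 11.1 CPM in treated aggregates (−0.91). NDRG1, a stress-responsive gene, averaged 2664 ± 99.2 and 1379 ± 129 CPM (−0.95). The angiogenic factor VEGFA was at 398, 396 and 311 CPM in untreated and 232, 230.1 and 231 CPM in treated aggregates (−0.68, edgeR adjusted p = 1.22e-09). Its 3 treated libraries were nearly equal, and all were below the lowest untreated one.

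Further falls spanned the known arms of the response. Genes named beyond the rule given under the processing were chosen after their values were seen. DDIT4, an inhibitor of mTORC1, was at 1032, 989 and 1005 CPM in untreated and 386, 416 and 417 CPM in treated aggregates (−1.31, edgeR adjusted p = 7.09e-09). PFKFB4, which makes the activator of phosphofructokinase, fell by 1.36 and the glucose transporter SLC2A1 by 0.70 on the log2 scale. ANKRD37, a small ankyrin repeat protein, was at 11.8, 13.1 and 13.6 CPM and then 2.8, 2.84 and 2.73 CPM (−2.20). SLC2A3, a high-affinity glucose transporter, was at 16.2, 18 and 12.9 CPM and then 0.903, 2.15 and 0.939 CPM (−3.57). In both, every treated library was several times lower than every untreated one. P4HA1, which hydroxylates collagen, fell by 0.75 and ERO1A, an oxidase of protein folding, by 0.71. BNIP3, a mitophagy receptor, fell by 0.45. The 4 tested members that did not pass were the carbonic anhydrases CA9 (−0.44, edgeR adjusted p = 0.163) and CA12 (0.03), the sterol regulator INSIG2 (−0.11) and P4HA2 (−0.10). Without untreated replicates 1 and 2, 21 hypoxia genes fell and 0 rose.

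The promoters of 3 of these genes are shown because they fell most among those with an entry or, for EGLN3, with the smallest p. Each is the 250 bases before the first listed RefSeq transcription start on GRCh38.p14, read 5′ to 3′ on the strand of the gene. Capitals mark the core of the HIF-binding element, ACGTG or GCGTG, on either strand, where matches may overlap. ADM is shown at chr11:10304823-10305072 (plus strand), ANKRD37 at chr4:185396591-185396840 (plus strand) and EGLN3 at chr14:33951075-33951324 (minus strand).
ADM: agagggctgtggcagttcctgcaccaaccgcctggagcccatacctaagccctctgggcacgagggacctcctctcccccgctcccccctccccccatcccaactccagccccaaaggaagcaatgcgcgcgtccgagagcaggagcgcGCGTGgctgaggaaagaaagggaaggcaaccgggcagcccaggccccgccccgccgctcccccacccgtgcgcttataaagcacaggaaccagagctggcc
ANKRD37: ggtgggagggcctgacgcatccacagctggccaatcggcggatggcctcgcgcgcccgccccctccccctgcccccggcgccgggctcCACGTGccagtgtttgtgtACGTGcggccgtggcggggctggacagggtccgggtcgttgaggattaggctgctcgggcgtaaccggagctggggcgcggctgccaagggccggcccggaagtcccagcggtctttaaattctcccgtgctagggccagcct
EGLN3: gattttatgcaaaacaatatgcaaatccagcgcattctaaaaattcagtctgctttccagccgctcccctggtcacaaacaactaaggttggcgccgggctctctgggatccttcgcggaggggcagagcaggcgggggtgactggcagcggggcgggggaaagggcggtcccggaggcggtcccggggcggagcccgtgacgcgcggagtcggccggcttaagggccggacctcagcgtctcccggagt
ADM held 1 match, ANKRD37 held 3 and EGLN3 held 0 in these windows. Of the 28 tested hypoxia genes 23 had a promoter entry and 18 of these (78.3%) held the core, as did 15 of the 19 matched members that fell (78.9%). The core was present in 15172 of all 35116 promoters in the table (43.2%) and in 6779 of the 12091 promoters of tested genes (56.1%). A match describes these letters and is not evidence of binding.

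Glycolysis genes fell as well, in a list that shares members with the hypoxia list. Of 20 glycolysis genes 15 fell and 1 rose, with a median change of −0.40. The aldolase ALDOC averaged 181 ± 8.31 CPM in untreated and 97.3 ± 3.33 CPM in treated aggregates (−0.89). PFKP, the platelet form of phosphofructokinase, fell by 0.68 on the log2 scale. GAPDH, which oxidizes glyceraldehyde phosphate, was at 6251, 6478 and 6768 CPM in untreated and 4493, 4639 and 4332 CPM in treated aggregates (−0.53, edgeR adjusted p = 8.98e-10). The groups did not overlap. ALDOA fell by 0.55, PGK1, a kinase that makes ATP, by 0.47, the enolase ENO1 by 0.42 and the lactate dehydrogenase subunit LDHA by 0.35. HK1, the constitutive hexokinase, rose by 0.16, and this call was lost without untreated replicates 1 and 2 (edgeR adjusted p = 0.307). The pyruvate kinase PKM did not pass (−0.11, edgeR adjusted p = 0.135). Without those replicates 17 glycolysis genes fell.

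In order of size, the genes of at least 10 CPM in both groups with the largest falls were ADM, STC1, SERPINI1, EGLN3, FUT11, FOS, H19, ARRDC3, PFKFB4, DDIT4, RND3, ADSS1, PDK1, CAMK1D and PKIA. STC1, the secreted glycoprotein stanniocalcin, was at 31.3, 39.1 and 46 CPM in untreated and 10.0, 10.2 and 13 CPM in treated aggregates (−1.81, edgeR adjusted p = 4.25e-08). SERPINI1, the protease inhibitor neuroserpin, was at 41.6, 49 and 50.1 CPM and then 13.5, 13.4 and 15.2 CPM (−1.74). FUT11, a fucosyltransferase, was at 55.5, 56.3 and 54.9 CPM and then 18.5, 20.1 and 19.6 CPM (−1.52). Each of these 3 genes had all treated libraries below all untreated ones. The imprinted noncoding RNA H19 was at 335, 363 and 436 CPM in untreated and 147, 144 and 149 CPM in treated aggregates (−1.37), and the treated libraries were the more uniform. The arrestin-related ARRDC3 fell by 1.36, the small GTPase RND3 by 1.31, the purine enzyme ADSS1 by 1.30, the kinase CAMK1D by 1.30 and the protein kinase A inhibitor PKIA by 1.22.

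**Figure D3:**
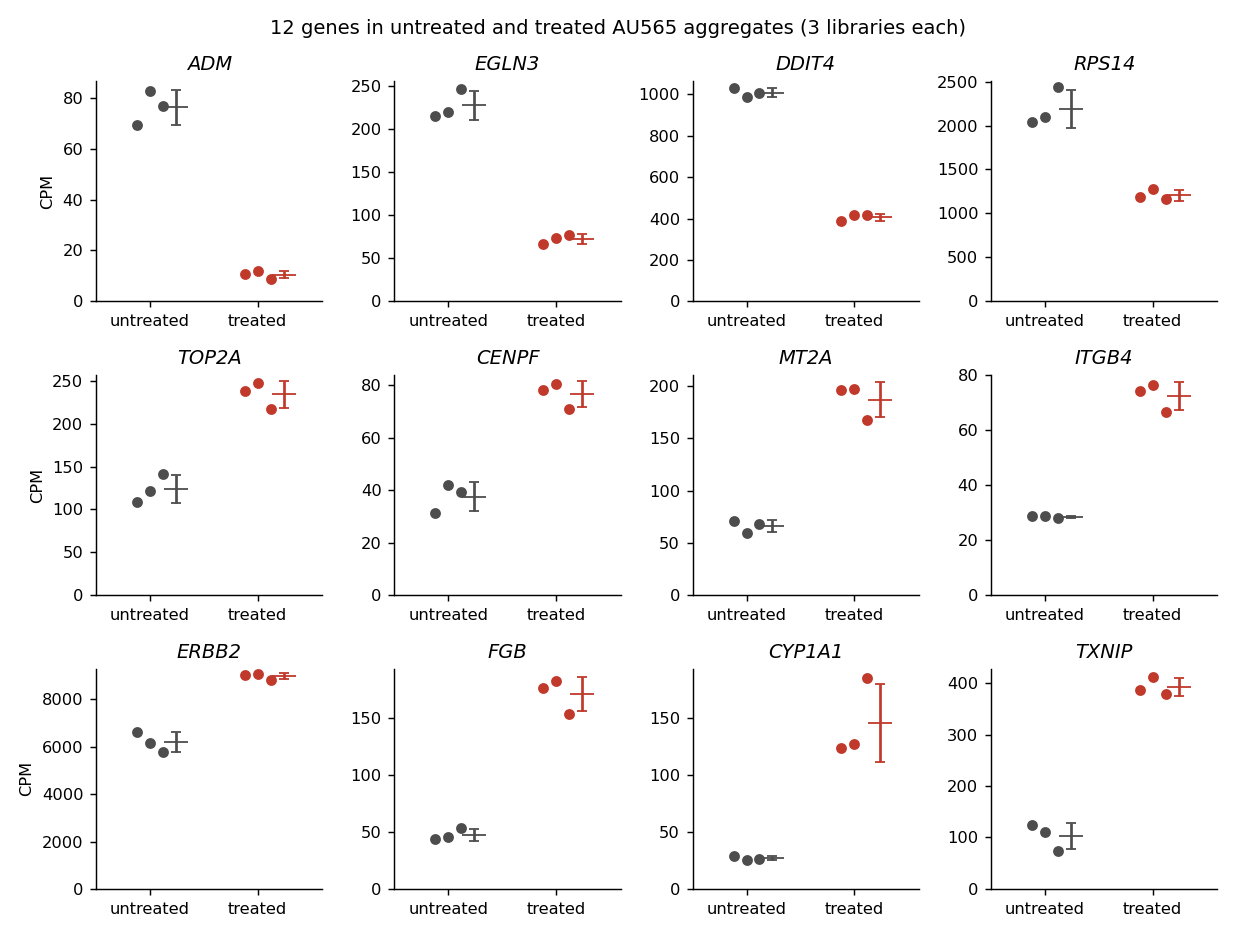
Level in CPM (axes from 0) of 12 genes in each library of untreated (grey) and treated (red) aggregates, 1 point per library, with the mean and SD of each group beside them. For ADM, EGLN3, DDIT4 and RPS14 the 3 treated libraries lie below the 3 untreated ones, and for the other 8 genes they lie above.

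Mitotic genes moved the other way. Of 38 genes of mitotic cyclins, kinases and spindle proteins 31 rose and 0 fell, against 18.8% of all genes that rose, with a median change of 0.51. CDC25B, a phosphatase that activates the mitotic kinase CDK1, averaged 99.7 ± 8.21 CPM in untreated and 174 ± 8.61 CPM in treated aggregates (0.81, edgeR adjusted p = 6.49e-13). The cyclin CCNB1 averaged 22.6 ± 2.85 and 34.2 ± 1.07 CPM (0.60). FOXM1, the transcription factor of G2/M genes, rose by 0.69. CENPF, a protein of the kinetochore, was at 31.4, 41.8 and 39.2 CPM in untreated and 78.1, 80.4 and 70.9 CPM in treated aggregates. All treated libraries lay well above all untreated ones, a change of 1.03 (SE 0.11, edgeR adjusted p = 3.08e-07). TOP2A, the topoisomerase that untangles chromosomes, was at 108, 121 and 142 CPM and then 238, 248 and 217 CPM (0.92). The proliferation marker MKI67 was at 29, 35.5 and 32.7 CPM in untreated and 59.8, 56.1 and 46.8 CPM in treated aggregates (0.74, edgeR adjusted p = 1.19e-05). Neither gene overlapped between the groups.

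These rises set out from a low level. MKI67 averaged 193 CPM in untreated monolayers, TOP2A 596 and CENPF 180.4, each above its level in treated aggregates. HMMR, a spindle and hyaluronan-binding protein, was at 4.99, 4.65 and 5.17 CPM in untreated and 9.63, 9.67 and 7.9 CPM in treated aggregates (0.88). The kinases PLK1 and AURKA rose by 0.74 and 0.49. Cyclin A, encoded by CCNA2, did not pass (0.22, edgeR adjusted p = 0.077). Without untreated replicates 1 and 2, 22 mitotic genes rose and 0 fell.

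The genes of DNA replication did not follow the mitotic ones. Of 38 members 1 rose and 3 fell, with a median change of −0.02, and without untreated replicates 1 and 2 2 rose and 5 fell. The clamp loader subunit RFC4 changed by −0.47, the licensing factor CDC6 by −0.26 and the helicase subunit MCM3 by −0.25, while the polymerase subunit POLE rose by 0.21. The call of CDC6 was lost when untreated replicate 3 was left out, and that of POLE when untreated replicate 2 or 3 was. MCM2 (0.03), the sliding clamp PCNA (−0.07) and the S-phase regulators E2F1 (0.18) and CCNE1 (0.22) did not pass. Among 21 cyclins, kinases and inhibitors of the G1 phase 8 rose and 3 fell, and without untreated replicates 1 and 2 4 rose. The cyclin CCND3 changed by 0.62, CCND2, at 1.35 CPM in untreated aggregates, by −3.87 and the pocket protein RBL2 by 0.34. CDKN1A, the p21 inhibitor, was at 7.46, 7.4 and 6.01 CPM in untreated and 13.2, 15.7 and 12.6 CPM in treated aggregates (0.99). CDKN1B, the p27 inhibitor, fell by 0.26. CCND1 rose by 0.22, a call that was lost without untreated replicates 1 and 2 (edgeR adjusted p = 0.075). Of 31 clustered histone genes 1 rose and 3 fell, and without those replicates 0 rose and 3 fell. Near-identical copies of these genes can share reads.

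HMMR and TOP2A are shown as mitotic promoters that hold the cell cycle homology region, TTTGAA or its reverse complement TTCAAA, in capitals. The windows are drawn as above from RefSeq on GRCh38.p14, HMMR at chr5:163460382-163460631 (plus strand) and TOP2A at chr17:40417897-40418146 (minus strand).
HMMR: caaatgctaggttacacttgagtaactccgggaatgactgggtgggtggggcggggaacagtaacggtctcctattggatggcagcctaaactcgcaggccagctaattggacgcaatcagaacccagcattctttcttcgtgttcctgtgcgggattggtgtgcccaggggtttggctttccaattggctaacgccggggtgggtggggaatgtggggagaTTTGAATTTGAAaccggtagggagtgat
TOP2A: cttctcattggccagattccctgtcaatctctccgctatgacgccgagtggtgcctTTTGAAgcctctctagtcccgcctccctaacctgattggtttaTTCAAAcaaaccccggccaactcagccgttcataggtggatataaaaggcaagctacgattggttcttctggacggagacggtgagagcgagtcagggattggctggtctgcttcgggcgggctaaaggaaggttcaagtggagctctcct
Each window held 2 matches, which stand directly beside each other in HMMR. Of 31 mitotic genes with a promoter entry 16 (51.6%) held the motif, as did 15 of the 25 that rose (60%). It was present in 4677 of 35116 promoters (13.3%) and in 1070 of the 12091 of tested genes (8.85%).

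Genes of the translation machinery fell. Of 75 cytosolic ribosomal protein genes 58 fell and 1 rose, with a median change of −0.35. RPS14 was at 2044, 2095 and 2442 CPM in untreated and 1182, 1278 and 1164 CPM in treated aggregates. The treated libraries were all near the same level and below every untreated one, a change of −0.86 (SE 0.069, edgeR adjusted p = 5.31e-11). RPS27 averaged 87.3 ± 1.15 and 39 ± 2.35 CPM (−1.16), and RPLP0, of the ribosomal stalk, 643 ± 58.7 and 406 ± 30.9 CPM (−0.66). RPL39 was the member that rose (0.46), and that call was lost without untreated replicates 1 and 2 (edgeR adjusted p = 0.185). Ribosomal protein genes have many processed pseudogenes, and reads may be split among them. Without those replicates 58 members fell.

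MYC, a transcription factor for ribosome production, was at 276, 262 and 291 CPM in untreated and 191, 197 and 213 CPM in treated aggregates (−0.46, edgeR adjusted p = 2.13e-08). Its groups did not overlap. Of 32 genes of MYC and ribosome biogenesis 23 fell and 1 rose, with a median change of −0.23, and without untreated replicates 1 and 2 25 fell. FBL, the methyltransferase of ribosomal RNA, averaged 172 ± 11.1 CPM in untreated and 109 ± 2.82 CPM in treated aggregates (−0.66). NOP2, another nucleolar methyltransferase, fell by 0.43 and the pyrimidine synthesis enzyme CAD by 0.36. MXD4, a repressor that competes with MYC for its partner, rose by 0.34.

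Genes of the ATF4 and unfolded protein responses fell more often than they rose. Of 32 members 14 fell and 2 rose, with a median change of −0.13. SLC3A2 and SLC7A5, the paired chains of a leucine transporter, fell by 0.74 and 0.42 on the log2 scale. The serine synthesis enzyme PHGDH fell by 0.61 and the lipoprotein receptor VLDLR by 1.21. The members that rose were CEBPB (0.80), a transcription factor of stress and differentiation, and CHAC1 (0.88), which degrades glutathione. CEBPB lost its call in the fit of the compared groups alone (edgeR adjusted p = 0.0546). ATF4 itself did not pass (−0.05), nor did DDIT3 (−0.21). Without untreated replicates 1 and 2 13 fell and 2 rose. Beside these, 7 of 27 sterol genes fell and 3 rose, and 7 of 24 fatty acid genes rose and 3 fell. Without those replicates 6 sterol genes fell and 3 rose, and 5 fatty acid genes rose and 1 fell. HMGCS1, an early sterol enzyme, changed by −0.37. SREBF1, the regulator of lipogenesis, changed by 0.45.

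Transcripts of mitochondrial function split by origin. Of 36 nuclear genes of oxidative phosphorylation 17 fell and 0 rose, with a median change of −0.15. Without untreated replicates 1 and 2 26 fell. The complex I subunit NDUFC2 was at 51.5, 56.6 and 67.3 CPM in untreated and 32.7, 37.2 and 38.3 CPM in treated aggregates (−0.70), and cytochrome c, CYCS, fell by 0.31. Of 15 genes of the mitochondrial genome 9 rose and 3 fell, as did 9 and 3 without those replicates. The ribosomal RNA genes RNR2 (−0.74) and RNR1 (−0.64) and the oxidase subunit COX1 (−0.32) fell. The complex I subunit ND1 was at 1348, 1436 and 1363 CPM in untreated and 2295, 2239.7 and 2154 CPM in treated aggregates (0.69, edgeR adjusted p = 3.89e-13). ND6 rose by 0.78 and ATP8 by 0.83. ND6 lies on the strand opposite to its neighbours and ATP8 overlaps ATP6, and the sources used here do not say whether counting used the strand.

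The antibody's target and its partner rose. ERBB2 (Entrez 2064, chr17:39688094-39728658 on GRCh38.p14) was at 6619.7, 6179.6 and 5767 CPM in untreated and 9052, 9091 and 8832 CPM in treated aggregates. All treated libraries lay above all untreated ones and were the more uniform, a change of 0.54 (SE 0.053, edgeR adjusted p = 6.7e-10). ERBB3, which encodes the HER3 partner of HER2, was at 352, 345 and 347 CPM and then 524, 510.0 and 467 CPM (0.52, edgeR adjusted p = 4.5e-10). GRB7, an adaptor whose gene is coamplified with ERBB2, was at 831, 783 and 719 CPM in untreated and 1275, 1319 and 1288 CPM in treated aggregates (0.73). LRIG1, a transmembrane protein that promotes the degradation of HER receptors, rose by 0.67. For EGFR, the first receptor of the family, the order was inverted. It was at 305, 321 and 315 CPM in untreated and 237, 240.4 and 225 CPM in treated aggregates (−0.42, edgeR adjusted p = 8.93e-07), with no overlap. NRG1, a ligand of HER3, averaged 0.747 CPM in untreated and 0.0439 CPM in treated aggregates. In all, 10 of 28 HER receptors, ligands and adaptors rose and 4 fell, with a median change of 0.22, and 7 rose without untreated replicates 1 and 2.

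Targets of FOXO and genes held down by PI3K signaling rose in part. Of 28 members 14 rose and 6 fell, with a median of 0.18, and without untreated replicates 1 and 2 9 rose. IGF1R, the receptor of insulin-like growth factor, averaged 38.4 ± 0.79 CPM in untreated and 65.6 ± 1.13 CPM in treated aggregates (0.77, edgeR adjusted p = 9.9e-13). The insulin receptor INSR was at 18.1, 19.5 and 19.7 CPM and then 29.2, 33 and 30.4 CPM (0.69). Both receptors were higher in every treated library. The pseudokinase TRIB1 rose by 0.54. CITED2, which competes with HIF for a coactivator and is itself a HIF target, was at 319.6, 317 and 349 CPM in untreated and 159, 164 and 169.8 CPM in treated aggregates (−1.0). TXNIP, which restrains glucose uptake and binds thioredoxin, was at 123, 112 and 74.3 CPM and then 386, 411 and 378 CPM. Every treated library was above 3 times the highest untreated one, a change of 1.93 (SE 0.20, edgeR adjusted p = 2.24e-06). FOXO3 did not pass (0.15, edgeR adjusted p = 0.052).

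Genes of the ERK pathway went both ways. Of 30 feedback inhibitors and immediate early genes 9 rose and 8 fell, with a median of 0.13, and without untreated replicates 1 and 2 8 rose and 5 fell. SPRY4, a Sprouty inhibitor of receptor signaling, was at 40.8, 42.4 and 42.8 CPM in untreated and 90.6, 83 and 86.2 CPM in treated aggregates. The treated libraries were about at double the untreated level, a change of 1.04 (SE 0.064, edgeR adjusted p = 1.72e-14). FOS, a subunit of the AP-1 factor, was at 51.9, 49.9 and 41.3 CPM and then 18, 18.7 and 16.1 CPM. Here the treated libraries were the low ones, a change of −1.44 (edgeR adjusted p = 3.43e-13). JUN, its partner, fell by 0.52 and the stress factor ATF3 by 0.57. The phosphatase DUSP5 fell by 0.64, while its relative DUSP6 changed by 0.54. SPRED2, another inhibitor of the pathway, changed by 0.49. The immediate early factor EGR3 averaged 0.0592 CPM in untreated and 1.4 CPM in treated aggregates.

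The list of genes for adhesion to the basement membrane was among those in which rises outnumbered falls. Of 37 integrins, laminins and their partners 20 rose and 0 fell, with a median of 0.30, and without untreated replicates 1 and 2 16 rose. ITGB4, the integrin subunit of hemidesmosomes, was at 28.8, 28.7 and 28.1 CPM in untreated and 74.3, 76.6 and 66.6 CPM in treated aggregates. Both groups were tight and far apart, a change of 1.35 (SE 0.085, edgeR adjusted p = 1.66e-13). The laminin chain LAMB1 averaged 115 ± 2.33 and 165 ± 3.64 CPM (0.52). The hyaluronan receptor CD44 rose by 0.66 and the integrin subunit ITGB5 by 0.42. ITGB1, the common beta chain, did not pass (−0.03), nor did ITGA5 (−0.01). Of 35 genes of tight junctions and desmosomes 15 rose and 3 fell, and 7 rose without those replicates. Plakophilin PKP2 changed by −0.80, envoplakin EVPL by 0.67 and claudin CLDN4 by 0.46.

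Markers of secretory luminal epithelium rose more often than they fell. Of 34 members 19 rose and 2 fell, with a median of 0.26. Without untreated replicates 1 and 2 10 rose and 4 fell. CEACAM6, a cell surface adhesion protein, was at 147, 142 and 166 CPM in untreated and 402, 379 and 354 CPM in treated aggregates (1.32, edgeR adjusted p = 2.18e-15). PIP, the prolactin-induced secretory protein, was at 10.6, 10.7 and 12.7 CPM and then 23.2, 23.8 and 26.1 CPM (1.11). Both genes were at about double or more in every treated library. The keratin KRT23 rose by 1.29 and ELF5, a regulator of milk-producing cells, by 0.88. KRT19, a luminal keratin, fell by 0.42 and the epithelial ETS factor ELF3 by 0.28. Of 18 basal and cornified genes 7 rose and 0 fell, led by the calcium-binding pair S100A8 (1.02) and S100A9 (0.92), and 3 rose without those replicates. Of 24 Notch genes and stem cell markers 12 rose and 2 fell, and without those replicates 11 rose and 1 fell. The aldehyde dehydrogenase ALDH1A3 rose by 0.80, the receptor NOTCH2 by 0.55, the ligand DLL4 by 1.99 and the factor KLF4 by 0.60, while the Notch target HEY1 fell by 0.86 and the ligand JAG1 by 0.37. Of 21 genes of mesenchymal transition 6 rose and 5 fell, and without those replicates 4 rose and 3 fell.

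The metallothioneins MT2A, MT1X and MT1G rose, as did the zinc exporter SLC30A1. Metallothioneins are small proteins that bind zinc and copper, and their transcription is driven by the zinc sensor MTF1. Of 6 tested members of a list of metallothioneins, SLC30A1 and MTF1, 4 rose and 0 fell, with a median of 0.84, and 4 rose without untreated replicates 1 and 2. MT2A was at 70.5, 59.6 and 67.8 CPM in untreated and 196, 197 and 168 CPM in treated aggregates. Every treated library was more than 2 times the highest untreated one, a change of 1.5 (SE 0.10, edgeR adjusted p = 7.74e-10). MT1X was at 15.2, 14 and 14.9 CPM and then 28.5, 26 and 22.9 CPM (0.81), and the zinc exporter SLC30A1 at 13.4, 15 and 16.6 and 24.7, 25.8 and 23 CPM (0.70). MT1G averaged 0.0536 and 0.733 CPM. MTF1 did not pass (−0.06), nor did MT1F (0.86). Metallothionein genes are near-identical copies, and reads may be split among them. The MT2A promoter is shown because MT2A is the metallothionein among the largest rises at 10 CPM or more, at chr16:56608334-56608583 on the plus strand, drawn as above, with capitals at the core of the metal response element, TGCACNC or TGCGCNC, on either strand.
MT2A: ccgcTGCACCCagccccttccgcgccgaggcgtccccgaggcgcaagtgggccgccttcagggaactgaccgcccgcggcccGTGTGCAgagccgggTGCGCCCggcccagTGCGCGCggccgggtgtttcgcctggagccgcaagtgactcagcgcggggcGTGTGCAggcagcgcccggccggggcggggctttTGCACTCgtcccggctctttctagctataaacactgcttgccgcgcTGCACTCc
The window held 7 matches. Of 4 members with an entry 3 held the core (75%), against 8719 of 35116 promoters (24.8%) and 3930 of the 12091 of tested genes (32.5%).

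Other stress and immune lists gave mixed counts. Of 28 NRF2 and antioxidant genes 13 rose and 4 fell, and without untreated replicates 1 and 2 5 rose. The exporter ABCC2 rose by 0.42, while thioredoxin TXN fell by 0.31. Of 26 heat shock genes 7 rose and 5 fell, and of 38 autophagy and lysosome genes 11 rose and 5 fell. Without those replicates 3 and 9 rose and 5 and 5 fell. Of 35 interferon-responsive genes 7 rose and 3 fell, and without those replicates 7 rose and 1 fell. OAS1, a sensor of double-stranded RNA, was at 33.7, 32.9 and 33 CPM in untreated and 66.9, 66 and 71 CPM in treated aggregates (1.03, edgeR adjusted p = 6.8e-14), about double in each treated library. OAS3 rose by 0.81 and the membrane protein IFITM3 by 0.60. USP18, which restrains interferon signaling, fell by 0.72. Of 22 genes of MHC class I presentation 3 rose and 1 fell, and without those replicates 2 rose and 1 fell. CD274, the checkpoint ligand PD-L1, did not pass (−0.58, edgeR adjusted p = 0.0639). Of 27 NF-kB targets 8 rose and 4 fell, and of 31 YAP and actin genes 7 rose and 10 fell, with 5 and 2 that rose without those replicates.

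Regulators of survival were divided evenly. Of 32 genes of the BCL2 family and the p53 response 9 rose and 9 fell, with a median of −0.07, and without untreated replicates 1 and 2 8 rose and 10 fell. BMF, a BH3-only protein that promotes death on loss of adhesion, averaged 12.2 ± 1.3 CPM in untreated and 24.5 ± 0.997 CPM in treated aggregates (1.01, edgeR adjusted p = 2.36e-10). BOK, a channel-forming relative of BAX, rose by 0.83 and the caspase inhibitor CFLAR by 0.38. BID, which links death receptors to mitochondria, fell by 0.54. The death receptor FAS averaged 1.28 and 0.201 CPM.

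**Figure D4:**
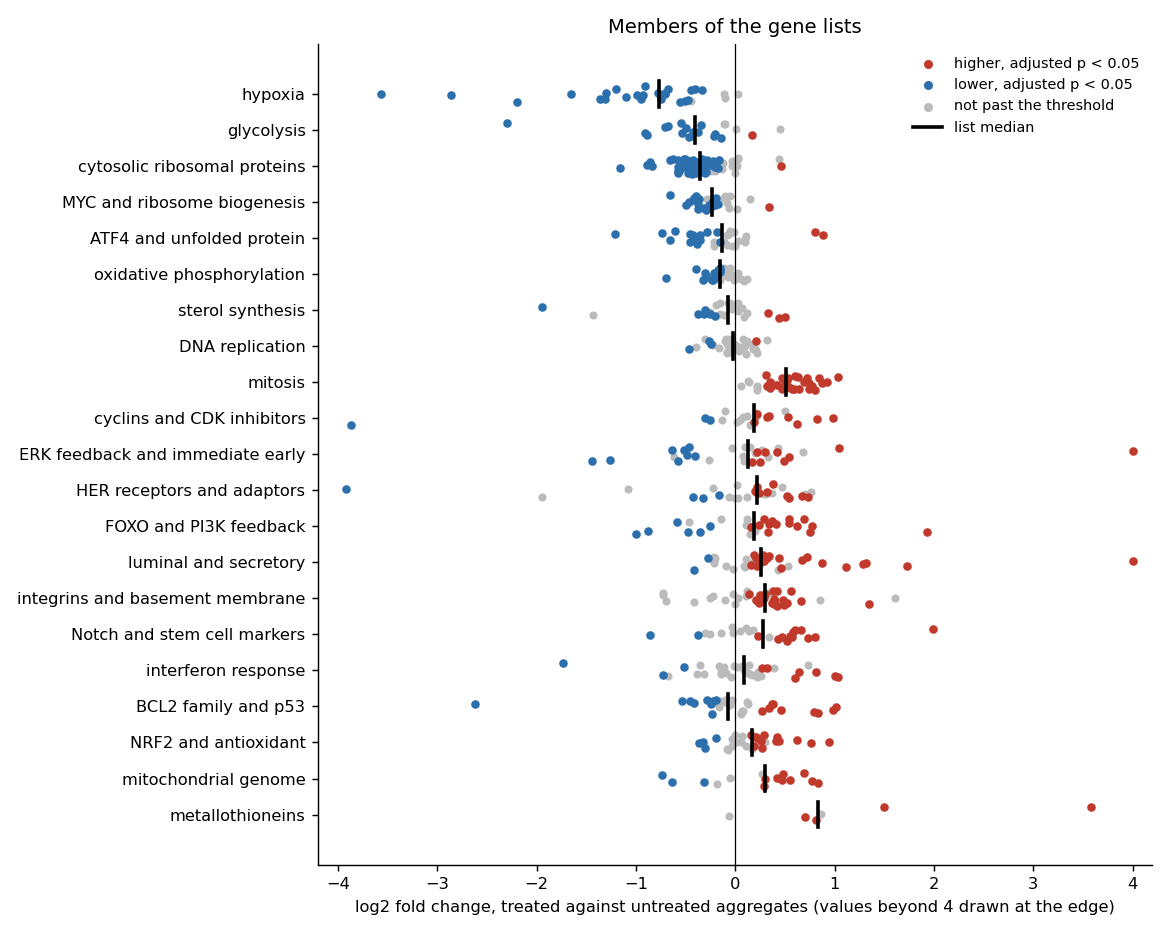
Change of every tested member of 21 gene lists (log2 treated over untreated aggregates, values beyond 4 drawn at the edge), 1 point per gene, red where it rose, blue where it fell and grey where it did not pass, with a bar at the list median. Hypoxia, glycolysis and ribosomal protein genes lie mostly below 0, and mitotic genes mostly above.

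Among single genes of at least 10 CPM in both groups, the largest rise was that of CYP1A1, the monooxygenase induced by the aryl hydrocarbon receptor. It was at 28.8, 25.5 and 26.5 CPM in untreated and 124, 127 and 186 CPM in treated aggregates (2.44, edgeR adjusted p = 1.31e-08). Treated replicate 3 was the highest, and all treated libraries were above all untreated ones. CYP1B1, another target of that receptor, did not pass (0.13, edgeR adjusted p = 0.293). Next in order after CYP1A1, TXNIP and MT2A were ADGRF1, ITGB4, CEACAM6, CCL22, CP, ABCC4, H1-10, SPTSSB, LIPH, RIPOR3, SLC7A2 and PIP. The adhesion receptor ADGRF1 averaged 27.6 ± 0.936 CPM in untreated and 71.5 ± 3.58 CPM in treated aggregates (1.37). CCL22, a chemokine that attracts regulatory T cells, averaged 13.6 ± 0.711 and 33.4 ± 2.07 CPM (1.29). The exporter ABCC4 rose by 1.26, the linker histone H1-10 by 1.22, the serine palmitoyltransferase subunit SPTSSB by 1.21, the phospholipase LIPH by 1.19 and the arginine transporter SLC7A2 by 1.12.

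With no minimum of 10 CPM, the largest differences were in genes of other tissues. Among the 12 largest fitted rises, IGKC, NAT8, ACSM2A, AQP2, ACSM2B, CPLX2, UGT2B7, SLC22A6, UGT1A9, SLC22A8 and SLC17A1 were at 0 in every untreated library. Against a floor of 3 counts over the untreated group (0.0562 CPM), the immunoglobulin chain IGKC was at least 48.7-fold higher, the kidney acetyltransferase NAT8 at least 47.1-fold and the phosphate transporter SLC17A1 at least 24.2-fold. Uromodulin, UMOD, was at 0.0588, 0 and 0 CPM in untreated and 10.8, 0.825 and 13.4 CPM in treated aggregates, with treated replicate 2 far below the others. Its edgeR adjusted p was 0.0269 with all libraries and 0.243 without untreated replicates 1 and 2. IGKC and NAT8 also lost their calls without those replicates (edgeR adjusted p = 0.107 and 0.132). Among the 12 largest falls, ISL1, a LIM homeobox transcription factor, was at 0 in every treated library and at least 51.3-fold lower. The matrix protein periostin, POSTN, was at 15.2, 22.3 and 13.2 CPM in untreated and 0.086, 0.138 and 0.0854 CPM in treated aggregates, and the melanocyte enzyme TYRP1 at 5.7, 5.97 and 8.21 and 0.043, 0.0917 and 0.256 CPM. The others included OLFM3, ANKRD1, IGF2BP1, SCN9A, GJA1, CAVIN2, EDIL3 and RAB34. EDIL3 lost its call with limma voom (adjusted p = 0.0849). It also lost it whenever 1 library of either aggregate group was left out (edgeR adjusted p = 0.0593 to 0.11).

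The same antibody on monolayers gave a response that differed from that of aggregates. Acutely exposed and untreated monolayers differed in 3222 genes (20.2%), 11.3% of genes higher and 8.91% lower, at 20 µg/ml for 24 h. Dose, age and form of culture all differ from the aggregate comparison. Cardiac myosin again marked some libraries, with MYH7 at 85.5, 87.4 and 0.0924 CPM in untreated and 0.11, 23.8 and 30.3 CPM in acutely exposed monolayers. Without the 6 monolayer and aggregate libraries that carried it, a choice made after these values were seen, 727 genes were called between the monolayer groups, 525 higher and 202 lower (72.2% higher). That fit has 1 library in each of untreated aggregates and both monolayer groups, which are assumed to vary like the others. The part of the left-out libraries in the change was not tested. It tested 16473 genes and called a smaller share of them than the fit with all libraries. Percentages from all libraries are therefore not the background for counts of list members without the 6 libraries. The monolayer and aggregate comparisons share no sample. Across the 15969 genes their changes had a Pearson correlation of 0.12, and across 9204 genes of at least 10 CPM 0.277, given as a description over genes, which are not independent. Genes called in the same direction in both were 813 that rose and 398 that fell, 20.7% of the aggregate calls and 37.6% of the monolayer calls. In opposite directions, 230 genes rose in aggregates and fell in monolayers and 199 did the reverse. The difference between the responses, aggregates minus monolayers, was itself called for 3757 genes (23.5%), 11.3% higher and 12.2% lower, and without the 6 libraries for 1178, 530 higher and 648 lower.

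Hypoxia genes separated the responses. In monolayers 9 of 28 rose and 1 fell, with a median of 0.13, and the difference between responses was called lower in aggregates for 21 and higher for 0. Without the 6 libraries with cardiac myosin 4 rose and 0 fell in monolayers, and the difference was called lower for 20. EGLN3 changed by −1.65 in aggregates and 0.38 in monolayers, a difference of −2.03 (edgeR adjusted p = 1.68e-14). VEGFA fell in aggregates by 0.68 and rose in monolayers by 0.51. HILPDA, a lipid droplet protein and HIF target, was at 696, 818 and 879.6 CPM in untreated and 344, 361 and 356 CPM in treated aggregates (−1.17) and rose by 0.86 in monolayers. Mitotic genes separated them the other way. In monolayers 0 of 38 rose and 29 fell, and the difference was called higher in aggregates for 36. Without the 6 libraries 8 fell in monolayers and the difference was called higher for 28. The spindle protein ASPM changed by 0.92 in aggregates and −0.39 in monolayers, a difference of 1.32 (edgeR adjusted p = 5.31e-06).

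Among the receptor genes the difference passed for EGFR and INSR. ERBB2 changed by 0.54 in aggregates and 0.36 in monolayers, and the difference did not pass (0.18, SE 0.0745, edgeR adjusted p = 0.0843). ERBB3 changed by 0.52 and 0.51, and GRB7 by 0.73 and 0.89, with differences of 0.02 and −0.15 (edgeR adjusted p = 0.901 and 0.152). EGFR fell by 0.42 in aggregates and rose by 0.23 in monolayers (difference −0.65, edgeR adjusted p = 9.85e-07). The ERK feedback genes had risen more in monolayers, where 19 of 30 rose and 0 fell, and the difference was called lower in aggregates for 18. Without the 6 libraries with cardiac myosin these counts were 12, 0 and 11. SPRY4 changed by 1.04 in aggregates and 2.27 in monolayers (difference −1.22, edgeR adjusted p = 9.15e-12), and INSR by 0.69 and 1.95 (difference −1.26, edgeR adjusted p = 9.38e-10). In the FOXO and PI3K list 14 of 28 rose in monolayers and 0 fell, and without the 6 libraries 8 rose and 0 fell. The log2 fold change of TXNIP in monolayers was 0.53 and did not pass (edgeR adjusted p = 0.0712; difference 1.39, edgeR adjusted p = 0.00191). Ribosomal protein genes, of which 58 fell in aggregates, had 2 that fell and 1 that rose in monolayers, and 0 of either without the 6 libraries.

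**Figure D5:**
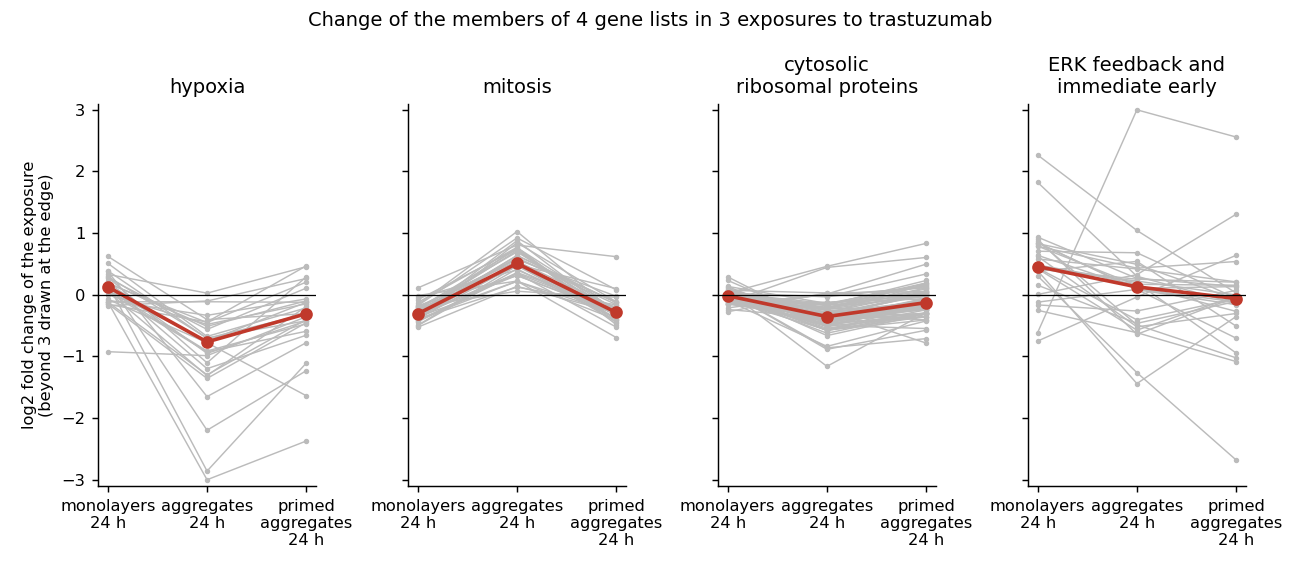
Change (vertical axis, log2, values beyond 3 drawn at the edge) of each member of 4 lists on exposure to trastuzumab in monolayers, aggregates and primed aggregates, 1 grey line per gene and the median in red. The hypoxia median is 0.13, −0.76 and −0.31 and the mitosis median −0.31, 0.51 and −0.29 in that order.

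Primed aggregates received the same final exposure, 50 µg/ml for 24 h, with the same added day, and the kidney, brain, melanocyte and fibroblast panels shifted in the same directions. Primed and treated aggregates differed from primed aggregates in 4754 genes (29.8%), 14.9% higher and 14.8% lower. The comparisons share no sample but share the exposure, the added day and the panel shift. Their changes correlated at 0.708 over all tested genes and at 0.567 over the 9204 of at least 10 CPM. The part of each shared feature in this correlation was not tested. Genes called in the same direction in both made up 43% of the calls in unprimed and 53% of those in primed aggregates. The difference between the responses, primed minus unprimed, was called for 1992 genes (12.5%), 5.05% higher and 7.42% lower.

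Hypoxia genes fell less in primed aggregates. There 14 of 28 fell and 4 rose, with a median of −0.31, and the difference was called higher for 19 and lower for 0. ADM changed by −2.86 in unprimed and −1.11 in primed aggregates, a difference of 1.75 (edgeR adjusted p = 1.55e-06). Before the final exposure ADM averaged 76.3 CPM in unprimed and 24 CPM in primed aggregates, and after it 10.5 and 11.2 CPM. STC1 likewise started at 38.8 and 14.5 CPM and ended at 11.1 and 12.3 CPM, so that the means lay further apart before the exposure than after it. Mitotic genes, of which 31 rose in unprimed aggregates, had 1 that rose and 20 that fell in primed ones. CENPF changed by 1.03 and −0.30 (difference −1.33, edgeR adjusted p = 6.43e-06). The log2 fold change of ERBB2 was 0.54 in unprimed and −0.01 in primed aggregates (difference −0.55, edgeR adjusted p = 2.7e-06), from 6189 and 8274 CPM to 8992 and 8198 CPM. That of SPRY4 was 1.04 and 0.03 (difference −1.01, edgeR adjusted p = 8.19e-10). CYP1A1 rose in both, by 2.44 and 3.34, and did not pass in monolayers (−0.03, edgeR adjusted p = 0.972).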

How the data were processed

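The authors deposited raw read counts per gene for 16553 genes by Entrez identifier, 174 without a symbol. The submitters' processing notes name featureCounts, hg38 and limma, without versions. RNA was extracted with TRIzol and libraries were made with TruSeq, per the labels. Here edgeR 4.0.16 (R 4.3.3) fitted all 7 groups together (TMM, filterByExpr, robust quasi-likelihood, 14 residual degrees of freedom, two-sided tests). The filter removed 584 genes with 0.0116% of counts. Positions and promoters come from RefSeq (GRCh38.p14), which matched 16373 identifiers. Tested on counts simulated for the aggregate comparison (15215 genes), the steps found 77% of 100 altered genes at 1.5-fold and 94% at 2-fold. Of the 179 calls in the simulation 4.47% were false. It gave every gene the same spread and all groups the same profile apart from the altered genes. Libraries did not differ in other-tissue transcripts there, so these rates need not hold for the calls reported here. Replicate pairs in the 2 aggregate groups differed by 2.77 to 10.7 times the counting variance.

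Members and lists were chosen with earlier results of these data known. Named genes are the 12 called genes with the largest change each way at 1 CPM or more in 1 group, the 15 each way at 10 CPM or more in both, up to 4 members of each list by p (2 in the other direction), 12 followed throughout, and the 6 largest differences each way. Fewer of each are printed, in rank order, and some genes are not reported here. Alternatives were DESeq2 1.42.0, limma voom (limma 3.58.1), RLE size factors, TMM without other-tissue and mitochondrial genes, no filter, genes averaging 10 CPM, a replicate block, a fit of the compared groups alone, and leaving out libraries.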

Additional observations from a re-analysis of the deposited data

Results flagged for a closer look

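The response of aggregates differed from that of monolayers in 3757 genes by a test of the difference itself in edgeR. The largest differences toward aggregates, among genes of at least 10 CPM in all 4 groups, were in the actin-binding protein SYNPO (1.88, as log2 change in aggregates minus log2 change in monolayers), TXNIP (1.39), the iodotyrosine deiodinase IYD (1.32) and ASPM (1.32). SYNPO was at 11.8, 13.7 and 13.6 CPM in untreated and 23.6, 25.5 and 24.5 CPM in treated aggregates and changed by −0.97 in monolayers. The largest differences toward monolayers were in HILPDA (−2.04), EGLN3 (−2.03), the copine CPNE7 (−1.69) and the prostaglandin synthase PTGES (−1.64). PTGES rose by 1.68 in monolayers and did not pass in aggregates (0.05). CPNE7 was at 89.5, 71 and 43.4 CPM in the 3 untreated aggregates, where replicate 3, the library without cardiac myosin, was the lowest.

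The response of primed aggregates differed from that of unprimed aggregates in 1992 genes. It was higher in ADM (1.75, as log2 change in primed minus log2 change in unprimed aggregates), CYP1B1 (1.72), STC1 (1.58) and tyrosine hydroxylase, TH (1.5). It was lower in ASPM (−1.34), CENPF (−1.33), SPTSSB (−1.29) and the mucin MUC16 (−1.24). CYP1B1 rose by 1.85 in primed aggregates. MUC16 averaged 157 CPM in untreated and 313 CPM in treated unprimed aggregates.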

How the results depend on the processing

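The count of genes called between treated and untreated aggregates stayed within 1.5 times of 5856 in every alternative run. It was 5783 with the replicate number as a block, and leaving out 1 library at a time gave 4983 to 5506. The same-number libraries did not deviate together (correlations of −0.256, −0.0645 and −0.161). With so few libraries in a group, deviations from the group mean cannot show whether the samples were paired. With 1 library left out, aggregates minus monolayers gave 3040 to 3826 genes, primed minus unprimed 1502 to 2176, monolayers 2359 to 3048 and primed and treated against primed aggregates 3748 to 4754. Without the 6 libraries with cardiac myosin transcripts, a setting added after seeing the data, aggregates minus monolayers gave 1178 genes and monolayers 727, with fewer samples in both. CPNE7, which fell by 0.59 on the log2 scale with all libraries, had a log2 fold change of 0.047 without untreated replicates 1 and 2, and the cause was not tested. UMOD lost its call with limma voom, with only the groups compared and with the block. It also lost it when any 1 untreated aggregate replicate, or treated replicate 1 or 3, was left out. EDIL3 lost its call with limma voom and when any 1 library of the 2 aggregate groups was left out. MYH7 was called by DESeq2. No scaling moved the median of all genes by 0.1, but the scalings are built to keep it near 0, so this says little about the calls. Of the 5856 calls 51.2% were higher, against 47.8% of 4573 without untreated replicates 1 and 2. At this depth a gene at 0 in every untreated aggregate could lie at up to 0.0562 CPM, by counting error alone.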

Other observations

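The fibrinogen genes, markers of the hepatic acute phase, were higher in treated aggregates. FGB was at 43.8, 45.5 and 53.2 CPM in untreated and 177, 183 and 154 CPM in treated aggregates (1.85, edgeR adjusted p = 6.47e-10), and FGG at 129.7, 147 and 189 and 418, 414 and 391 CPM (1.39). FGA averaged 1.04 and 9.56 CPM. The copper carrier ceruloplasmin, CP, was at 279, 299 and 359.8 CPM and then 761, 744 and 749 CPM (1.27). In each of these genes all treated libraries lay above all untreated ones. The log2 fold changes of the same genes, in the order FGB, FGG, FGA and CP, were 2.20, 1.23, 2.90 and 0.47 in primed aggregates and 0.42, −0.08, 0.18 and 0.54 in monolayers. Of 8 tested genes of the liver and gut panel, fibrinogens included, 5 rose and 1 fell. The others that rose were APOB, which averaged 0.257 and 1.38 CPM, and SERPINA1 (0.22), whose call was lost without untreated replicates 1 and 2 (edgeR adjusted p = 0.896). AMBP, which did not pass, was at 2.88, 3.11 and 3.15 and 2.84, 3.03 and 2.82 CPM, and CYP2E1, the member that fell, at 1.23, 0.511 and 0.119 and 0.129, 0.183 and 0.0854 CPM. The part of the other-tissue transcripts in these values was not tested.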
